A study of Mus musculus with 48 samples.

Results

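Arntl, Clock, Npas2 and Rora are the genes for the activators of the circadian clock and for a nuclear receptor that drives Arntl. They were chosen by gene symbol, with earlier results of these data known, and are 4 of the 42713 genes in the deposited tables. Libraries were made from polyA RNA of the glucagon cells (α) and the insulin cells (β) of the pancreatic islet. Both were sorted by fluorescence from islets of male mice aged 6 to 8 weeks, at zeitgeber times (ZT, hours after lights on) 0, 4, 8, 12, 16 and 20. All animals, the controls included, carried ProGcg-Venus and RIP-Cherry, which make α and β cells fluoresce, together with PER2::Luc, a luciferase fusion of a clock protein, and the pair Insulin-rtTA and TET-DTA. In this pair doxycycline switches on diphtheria toxin A in cells in which the insulin promoter is active. The doxycycline (DOX) mice drank 300 mg of the drug, for which the labels give no volume, in water with 2% sucrose, and the control (CTR) mice drank sucrose water without it. The labels describe a lighting cycle of 12 h light and 12 h dark and feeding at night only from 10 days before. Some of the animals had inverted light and feeding cycles for 2 weeks, and which times they gave is not stated. No group received doxycycline without the toxin genes, so the drug and the ablation cannot be told apart, and the β cells of DOX mice are those that remained after it. Each cell type, treatment and time has 2 libraries, so each of the 4 conditions has 12. The labels call the libraries duplicates without naming animals, so the spread behind each p-value is that between libraries and may be technical.

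The clock of mammalian cells is a transcriptional loop. BMAL1, the product of Arntl, pairs with CLOCK or with its relative NPAS2, and the pair binds E-box elements and activates the genes of its own repressors, the PER and CRY proteins and the REV-ERB receptors. RORα, the product of Rora, and the REV-ERB receptors compete for RORE elements, where RORα activates and REV-ERB represses. Arntl is the best known target of this arm, and Npas2 and Clock are also counted among its targets. In islets the clock is known for timing hormone secretion.

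On GRCm38, Arntl (ENSMUSG00000055116.8) lies at chr7:113207465-113314126 on the plus strand and Clock (ENSMUSG00000029238.11) at chr5:76209868-76304792 on the minus strand. Npas2 (ENSMUSG00000026077.15) lies at chr1:39193731-39363236 and Rora (ENSMUSG00000032238.17) at chr9:68653786-69388246, both on the plus strand. No other gene of the deposited tables overlaps their spans on either strand. RORE cores were searched in the 300-base windows (250 bases before to 50 after a start) that RefSeq (GRCm38.p6) gives for these genes, because Arntl and Rora are the target and the activator of this element. The core TAGGTCA, its variant form TAGGTTA and a further form, TGGGTCA, were looked for on both strands. So were the E-box with the letters CACGTG and the D-box, as TTATGTAA or in its other form TTACGTAA. Arntl was the only one of the 4 genes with a match. It held one TAGGTTA and one TAGGTCA, and the runs below show each core in capitals, 5′ to 3′ on the strand of the gene.
Arntl, chr7:113207493-113207522: ttggtcggaaagTAGGTTAgtggtgcgaca
Arntl, chr7:113207529-113207558: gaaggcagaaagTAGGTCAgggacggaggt
The first core occupies chr7:113207505-113207511, inside the 5′ UTR of 1 of the 6 annotated transcripts, and begins 40 bases after the upstream start and 6 bases before the downstream one (position -6). The second occupies chr7:113207541-113207547, inside the 5′ UTR of 2 of 6 transcripts, and begins 30 bases after the downstream start. Of 32851 RefSeq windows, 1.44% held TAGGTTA, 2.61% held TAGGTCA, and 16 (0.049%) held both. TGGGTCA was in 3.98% of windows, CACGTG in 7.15%, TTATGTAA in 0.94% and TTACGTAA in 0.12%. The 3 windows of Clock and the 1 window each of Npas2 and Rora held none of these letters, which says only that they are not in those windows.

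The titles date 2 sequencing runs. The 20 libraries of the earlier held between 16.1 and 28.6 M (mega) estimated counts each, and the 28 of the later between 37.4 and 69.9 M. Replicate 1 of every time but ZT0 came from the earlier run, and all else from the later, so run is a term in every fit. Between the runs Clock differed, with a log2 value higher in the later run by 0.32 in α cells and 0.30 in β cells (edgeR, adjusted p = 0.00158 and 0.0127), and 18.8% and 18.9% of all genes passed the same test. The difference for Npas2 was larger but did not pass, at -0.82 in α cells and -0.76 in β cells (edgeR, later minus earlier run, adjusted p = 0.138 and 0.0918). Arntl and Rora did not pass either. The sorted cells carried their defining hormones. Glucagon (Gcg) ran from 222000 to 445000 CPM (counts scaled to library depth, per M counts) in α-cell libraries and from 41.8 to 388 in β-cell libraries. Insulin 2 (Ins2) ran from 146000 to 298000 CPM in β cells and from 136 to 2650 in α cells. The summed level of 5 genes listed for other islet cells (δ, PP and ε) was 15500 to 40800 CPM in α cells and 331 to 1560 in β cells.

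Per kilobase of gene model, Clock was the most abundant of the 4 and Npas2 the least. In control β cells Clock stood at 9.11 ± 2.27 RPKM (counts per kilobase, scaled to library depth), Rora at 5.18 ± 0.62, Arntl at 1.90 ± 1.42 and Npas2 at 0.674 ± 0.912 (SD, n = 12). In control α cells the values were 6.47 ± 1.14 for Clock, 4.04 ± 0.70 for Rora, 1.50 ± 1.03 for Arntl and 0.302 ± 0.428 for Npas2. The order Clock, Rora, Arntl, Npas2 held in 44 of 48 libraries, 11 of 12 in each condition. In 3 of the others, Rora stood above Clock, and in 1, Rora was last. Within libraries, Arntl was at 3.28 to 52.8% of the RPKM of Clock (median 21.8%, 48 libraries) and Npas2 at 0 to 32.5% (median 3.05%). Of their relatives, Rorb, the gene of RORβ, stood at 0.007 ± 0.009 RPKM in control β cells and Arntl2, the gene of BMAL2, at 0.051 ± 0.051.

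Arntl rose and fell over the day in every condition, with its highest group mean at ZT0 and its lowest at ZT12. In control β cells the libraries held 36.8 and 25.1 CPM at ZT0, 20.02 and 9.78 at ZT4, 4.72 and 5.34 at ZT8, 3.62 and 5.15 at ZT12, 14.4 and 9.82 at ZT16, and 18.8 and 15.3 at ZT20 (scaled over all 48 libraries). The level was thus low at both ZT8 and ZT12 and had climbed again by ZT16. In doxycycline β cells the values were 18.6 and 29.6 at ZT0, 21.4 and 14.9 at ZT4, 13.9 and 10.8 at ZT8, 5.10 and 3.46 at ZT12, 7.32 and 6.31 at ZT16, and 11.0 and 17.0 at ZT20. There, Arntl lay above both control libraries at ZT8, below both at ZT16, and overlapped with them at the other 4 times. Here and below, how often all genes separated in this way was not counted, so such counts have no background. In control α cells Arntl fell from 25.3 and 16.5 CPM at ZT0 to 1.13 and 4.40 at ZT12, and in doxycycline α cells from 17.3 and 25.6 to 2.02 and 1.50. The highest group mean was 7.06 times the lowest in control β cells, 5.63 times in doxycycline β cells, 7.56 times in control α cells and 12.2 times in doxycycline α cells.

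Npas2 also had its highest mean at ZT0 in all 4 conditions, from far lower levels. In control β cells the libraries held 12.7 and 4.58 CPM at ZT0, 11.1 and 2.78 at ZT4, 0.740 and 1.22 at ZT8, 0.861 and 0.362 at ZT12, 1.17 and 0.331 at ZT16, and 1.22 and 1.22 at ZT20. The replicates at ZT0 and at ZT4 lay further apart, as a ratio, than those of Arntl. In doxycycline β cells the values were 6.53 and 13.1 at ZT0, 9.35 and 4.93 at ZT4, 5.07 and 4.13 at ZT8, 1.31 and 0.656 at ZT12, 0.834 and 0.444 at ZT16, and 1.95 and 3.22 at ZT20. They lay above both control libraries at ZT8 and ZT20, and the groups overlapped at the other times. In α cells Npas2 came close to the limit of detection at night. Control α cells held 5.84 and 1.85 CPM at ZT0 and 0.0754 and 0.0943 at ZT12, and doxycycline α cells 2.83 and 5.82 at ZT0 and 0 and 0.0768 at ZT12. The library at 0 (doxycycline α cells, ZT12, replicate 1) allows a level of up to 0.319 CPM, from 3 counting steps of 2 in the deposited counts, and counting error only is covered.

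Clock changed little over the day, and its highest group mean was 1.2 to 1.61 times its lowest in the 4 conditions. It ran from 68.8 to 159.6 CPM in control β cells (median 126.1), from 79.1 to 120.6 in doxycycline β cells (105.2), from 55.0 to 101.9 in control α cells (89.4) and from 62.4 to 113.7 in doxycycline α cells (84.1). Doxycycline β cells held 118.2 and 115.7 CPM at ZT0, against 151.1 and 159.4 in the controls. They lay below both controls at 3 of 6 times and had the lower mean at 5 of 6.

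Rora also varied little with time, with its highest group mean at ZT12 in each condition and 1.27 to 1.68 times its lowest. Control β cells held 66.0 and 69.2 CPM at ZT0, 79.2 and 68.4 at ZT4, 66.5 and 70.1 at ZT8, 78.4 and 73.8 at ZT12, 58.3 and 64.4 at ZT16, and 58.6 and 61.0 at ZT20. Doxycycline β cells held 59.0 and 32.1 at ZT0, 46.0 and 55.6 at ZT4, 44.1 and 60.4 at ZT8, 60.5 and 72.2 at ZT12, 44.4 and 53.2 at ZT16, and 35.6 and 52.2 at ZT20. At each of the 6 times both doxycycline libraries lay below both controls, and the share of all genes that did so was not counted. Control α cells ran from 37.3 to 68.4 CPM (median 54.0) and lay below both control β-cell libraries at each of the 6 times. Doxycycline α cells ran from 40.2 to 92.4 CPM (median 51.5) and overlapped with control α cells at 4 of the 6 times.

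**Figure D1:**
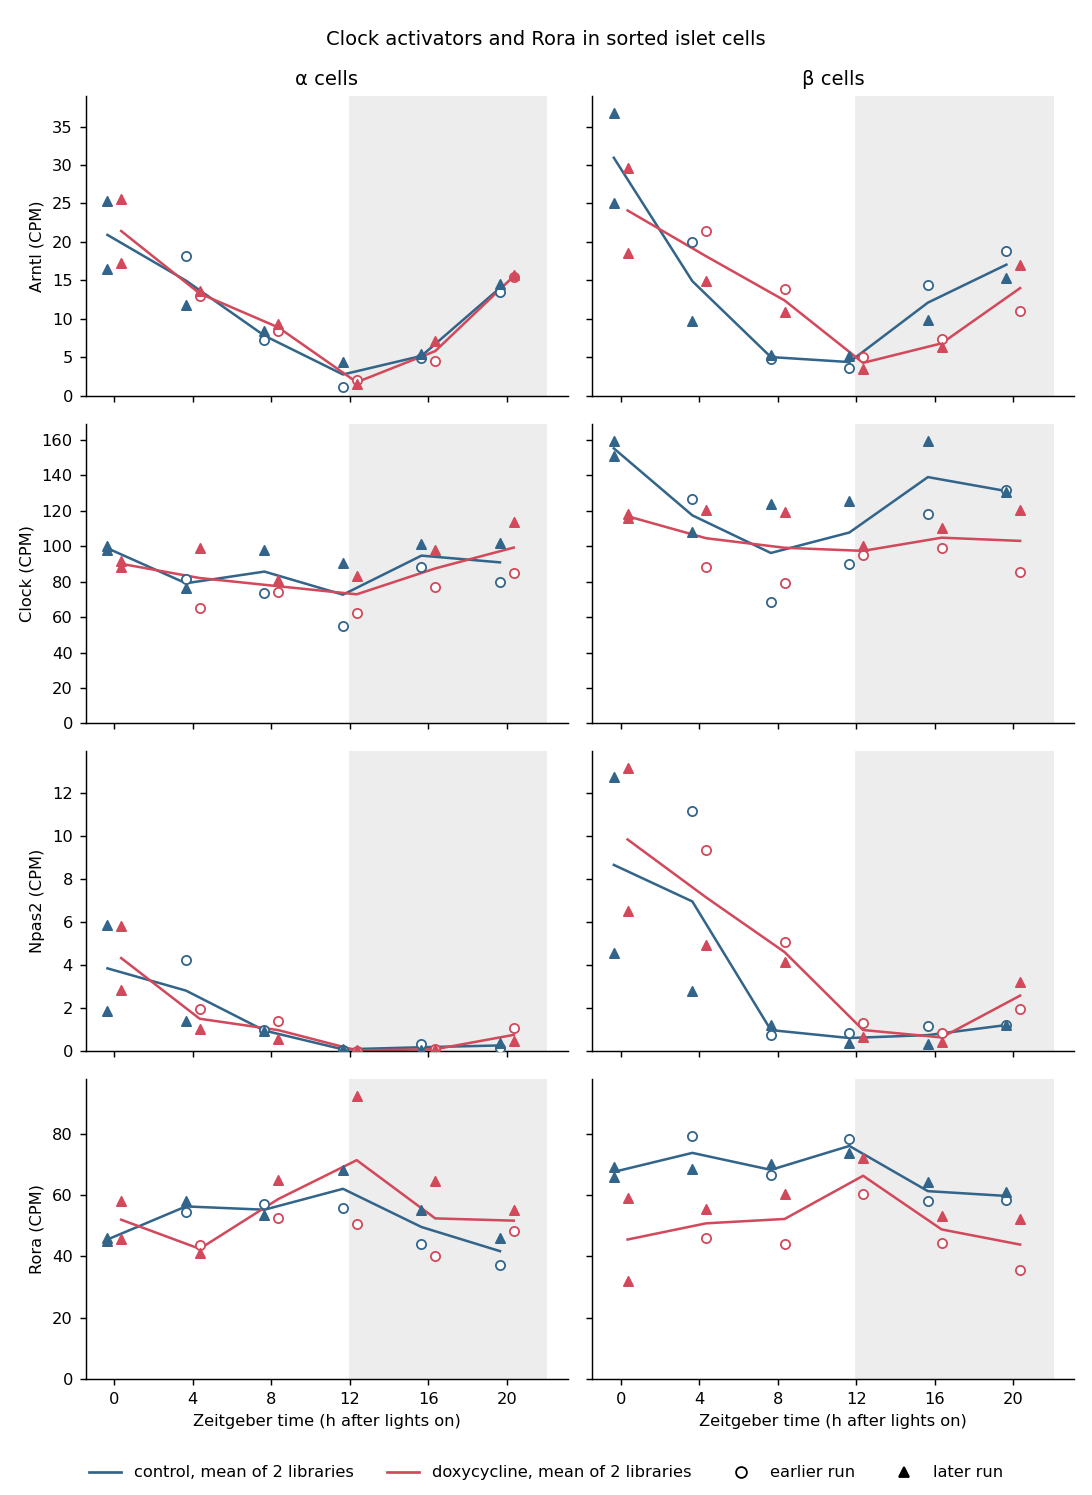
CPM of Arntl, Clock, Npas2 and Rora against zeitgeber time in α cells (left) and β cells (right). Each symbol is a library (open circle for the earlier run, filled triangle for the later), lines join the means of 2 libraries in control (blue) and doxycycline (red) mice, and the shaded part is the dark phase. Arntl and Npas2 fall from ZT0 to ZT12, and Rora in β cells lies lower after doxycycline at all 6 times.

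The effect of doxycycline on β cells, as a mean over the day, was a lower level of Rora and Clock and a higher level of Npas2, with no change called in Arntl. The log2 fold change of Rora was -0.40 ± 0.08 (SE, n = 12 per group, adjusted p = 0.000388, edgeR's quasi-likelihood test with time and run as terms), that of Clock -0.22 ± 0.07 (adjusted p = 0.0179) and that of Npas2 0.72 ± 0.28 (adjusted p = 0.0427). Arntl stood at 0.02 ± 0.18 (adjusted p = 0.946), with a 95% interval from -0.34 to 0.38. A gene is called here at an adjusted p under 0.05 over all genes. That was so for 43.8% of the 17128 genes tested, 22.7% higher and 21.1% lower, against 3 of these 4, so the count is read against a background in which such calls were common. Within runs, Rora fell by 0.53 in the earlier run (adjusted p = 0.00164) and stood at -0.30 in the later run (adjusted p = 0.103), which has 14 β-cell libraries. Clock was at -0.19 and -0.23 and Npas2 at 0.65 and 0.81 in the earlier and later runs, with adjusted p from 0.0696 to 0.264. The call of Npas2 was lost on leaving out any 1 of 15 of the 24 libraries (0.58 to 0.75, adjusted p = 0.0504 to 0.0965). These were all 4 of ZT8, control replicate 2 at the other 5 times, control replicate 1 at ZT20, doxycycline replicate 2 at ZT0, ZT12 and ZT20, and doxycycline replicate 1 at ZT4 and ZT12. The call of Clock was lost without replicate 2 of doxycycline β cells at ZT16 (-0.19, adjusted p = 0.0511) or replicate 1 of control β cells at ZT20 (-0.18, adjusted p = 0.0566), and without ZT0 (-0.18, adjusted p = 0.111).

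Markers of other cells moved with the same contrast. The summed level of 15 macrophage and dendritic cell genes ran from 58.6 to 432 CPM in control β cells (median 210) and from 147 to 1730 in doxycycline β cells (median 842), and all 15 rose (median log2 fold change 2.25). None of the 15 was at 0 throughout. Of the stellate and fibroblast list 5 of 8 genes rose (median 1.76), of the α-cell list 4 of 7 (0.88), and of the δ, PP and ε list all 4 tested (0.66). Of the 9 β-cell markers 5 fell and 1 rose (median -0.38), with a summed level of 248000 to 435000 CPM in control and 217000 to 392000 CPM in doxycycline β cells. Of the acinar, endothelial and lymphocyte lists 1 gene each was called. The median log2 fold change over all genes was 0.01. With the macrophage list as a covariate, Rora stood at -0.55 (adjusted p = 0.00658), Clock at -0.30 (adjusted p = 0.0868) and Npas2 at 1.29 (adjusted p = 0.0588), and calls over all genes fell from 7507 to 3564. In sorted bulk samples a change in the cells present and a change in RNA per cell cannot be told apart.

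In α cells none of the 4 genes was called, and 0.102% of 16707 genes were (0.0718% higher and 0.0299% lower). Npas2 stood at -0.10 ± 0.33 (95% interval -0.75 to 0.54), Clock at -0.04 ± 0.06 (-0.15 to 0.07), Arntl at -0.04 ± 0.16 (-0.34 to 0.26) and Rora at 0.07 ± 0.08 (-0.10 to 0.23) (SE, n = 12 per group), with unadjusted p from 0.43 to 0.798 (edgeR) and no member called by DESeq2. The difference of the doxycycline effect between β and α cells, fitted over 48 libraries, was called for Rora at -0.49 ± 0.12 (adjusted p = 0.00241, edgeR). Of all 17935 genes tested, 23.2% passed, 12.6% in this direction. The difference stood at -0.20 ± 0.09 for Clock (adjusted p = 0.117), 0.80 ± 0.44 for Npas2 (adjusted p = 0.193) and 0.04 ± 0.25 for Arntl (adjusted p = 0.944). For Rora it was -0.46 in the earlier run (adjusted p = 0.032) and -0.45 in the later run (adjusted p = 0.126). Without replicate 1 of control β cells at ZT8 the difference for Clock was also called (-0.25, adjusted p = 0.0309).

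Between the cell types, Npas2, Clock and Rora were higher in β than in α cells of control mice. The log2 fold change was 1.33 ± 0.33 for Npas2 (adjusted p = 0.00116), 0.48 ± 0.08 for Clock (adjusted p = 1.45e-05) and 0.37 ± 0.05 for Rora (adjusted p = 1.08e-06), whereas Arntl stood at 0.31 ± 0.20 (adjusted p = 0.181; SE, n = 12 per group, edgeR). A call was made for 68% of all genes in this comparison, with 33.3% of genes higher and 34.7% lower in β cells, so that 3 of 4 is close to the background. In doxycycline mice Npas2 (2.20 ± 0.27, adjusted p = 2.35e-07), Clock (0.32 ± 0.06, adjusted p = 3.89e-05) and Arntl (0.39 ± 0.15, adjusted p = 0.0242) were higher in β cells, against calls for 67.7% of genes (34.5% higher and 33.2% lower). Npas2 in doxycycline β cells lay above both α-cell libraries at each of the 6 times, and the share of all genes that did so was not counted. Rora stood at -0.08 ± 0.09 (adjusted p = 0.464), with a 95% interval from -0.26 to 0.10. The call of Arntl was lost without replicate 2 of doxycycline α cells at ZT12 (0.31, adjusted p = 0.05), replicate 2 of doxycycline β cells at ZT8 (0.35, adjusted p = 0.0513) or replicate 1 of doxycycline α cells at ZT8 (0.34, adjusted p = 0.0625), and in the later run alone (0.23, adjusted p = 0.283). The macrophage list was also higher in β cells, and as a covariate it left no member called in doxycycline mice (Npas2 2.06, edgeR adjusted p = 0.0789). The δ, PP and ε list was lower in β cells, with 5 of 5 genes called in control and in doxycycline mice. So was the acinar list, with 11 of 11 and 5 of 12. The part of these 2 lists in the differences was not tested.

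**Figure D2:**
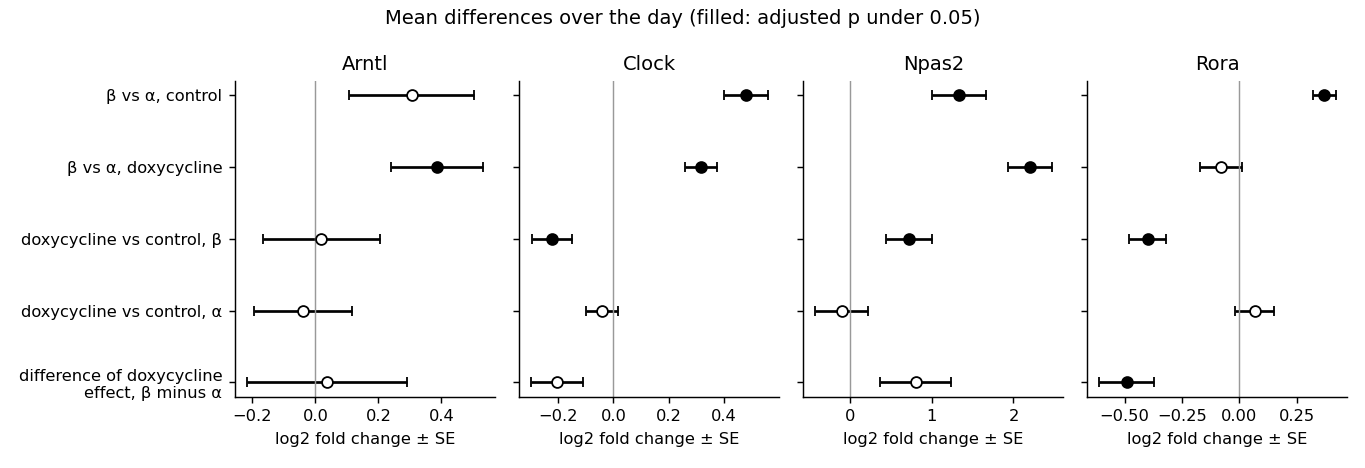
Log2 fold changes with SE of the 4 genes in the 5 comparisons of mean level over the day, with a panel and an axis of its own for each gene. Filled points passed an adjusted p of 0.05. Rora is lower after doxycycline in β cells (-0.40), near 0 in α cells (0.07), and its difference of effect is the one among the 4 genes that passed (-0.49).

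Rhythms were fitted as a cosine with a 24 h period, whose amplitude is the distance from mean to peak in log2 units. Arntl and Npas2 passed in all 4 conditions, Rora in control α cells alone, and Clock in none. In control β cells Arntl had an amplitude of 1.37 ± 0.17 with its peak at ZT 22.76 ± 0.45 h (SE, n = 12, edgeR adjusted p = 0.0118), and Npas2 an amplitude of 2.27 ± 0.31 with its peak at ZT 1.44 ± 0.49 h (adjusted p = 0.0213). In doxycycline β cells the amplitudes were 1.19 ± 0.16 for Arntl (peak ZT 1.18 ± 0.49 h, adjusted p = 0.00957) and 2.08 ± 0.25 for Npas2 (peak ZT 2.49 ± 0.46 h, adjusted p = 0.00912). In control α cells they were 1.35 ± 0.19 at ZT 0.60 and 2.89 ± 0.41 at ZT 2.37 (adjusted p = 0.0079 for each gene), and in doxycycline α cells 1.41 ± 0.22 at ZT 0.36 and 2.96 ± 0.43 at ZT 1.76 (adjusted p = 0.0178 and 0.0137). The fitted peak of Npas2 thus came after that of Arntl in each of the 4 conditions. Both genes had their highest group mean at ZT0, and the difference between their peaks was not tested. Over all genes, 1.53% passed in control β, 6.03% in doxycycline β, 2.91% in control α and 1.81% in doxycycline α cells, against 2, 2, 3 and 2 of these 4. These backgrounds moved with single libraries. With each of 12 libraries left out in turn, 244 genes in control β cells became 17 (without replicate 1 at ZT8) to 728 (without replicate 2 at ZT20), and 999 in doxycycline β cells 43 (replicate 1 at ZT20) to 1827 (replicate 1 at ZT0). In control α cells 463 became 136 (replicate 1 at ZT20) to 930 (replicate 1 at ZT0), and in doxycycline α cells 290 became 8 (replicate 1 at ZT20) to 396. The count moved by over 1.5 times without any 1 of 10, 10, 9 and 7 of the 12 libraries. With time as 6 levels in place of the cosine, the calls of Arntl in control β cells (adjusted p = 0.0454) and doxycycline α cells (0.0296) were kept and the other 7 were lost (adjusted p = 0.0689 to 0.306).

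The remaining rhythms were small. Clock had amplitudes of 0.27 ± 0.09 in control β, 0.06 ± 0.05 in doxycycline β, 0.13 ± 0.07 in control α and 0.16 ± 0.06 in doxycycline α cells, with adjusted p from 0.24 to 0.726. Rora reached 0.27 ± 0.06 at ZT 9.15 ± 0.79 h in control α cells (adjusted p = 0.0497), a call lost on leaving out any 1 of 10 of the 12 libraries (0.24 to 0.28, adjusted p = 0.0523 to 0.192), all but replicate 1 at ZT0 and replicate 2 at ZT8, and under the replicate block (0.25, adjusted p = 0.0703). In the other conditions Rora had amplitudes of 0.15 ± 0.06 (control β), 0.28 ± 0.09 (doxycycline β) and 0.28 ± 0.09 (doxycycline α), with edgeR adjusted p from 0.155 to 0.347. The amplitude that passed was thus larger than that of control β cells but not than those of doxycycline β and α cells. Without replicate 1 at ZT0, Rora in doxycycline β cells was at the threshold (0.36, adjusted p = 0.05). The call of Npas2 in control β cells was lost without replicate 1 at ZT4 (2.08, adjusted p = 0.0794) or replicate 2 at ZT12 (2.31, adjusted p = 0.0551). In doxycycline α cells Arntl lost its call without replicate 1 at ZT12 (1.30, adjusted p = 0.0506) or at ZT20 (1.36, adjusted p = 0.0682), and Npas2 without the latter (2.96, adjusted p = 0.0564). Within single runs, of 5 or 7 libraries, none of these rhythms was called except that of Npas2 in doxycycline β cells in the earlier run. The amplitudes of Arntl in single runs lay between 1.08 and 1.97 and those of Npas2 between 1.82 and 3.16.

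**Figure D3:**
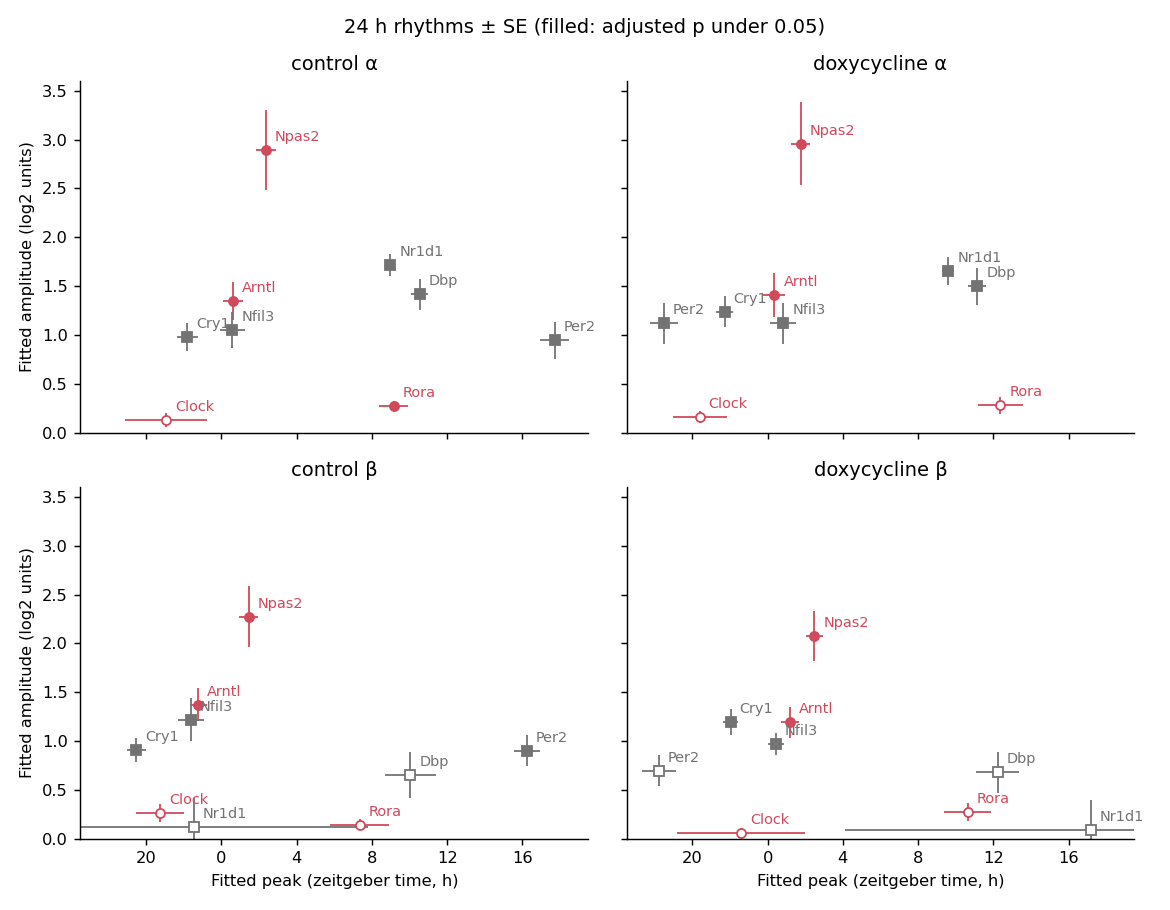
Fitted amplitude (log2 units) against fitted peak time in the 4 conditions for the activators and Rora (red circles) and for other clock genes (grey squares), with SE bars; filled symbols passed an adjusted p of 0.05. The time axis runs on through ZT0, and the peak of Nr1d1 in β cells is so uncertain that its bar leaves the panel. Npas2 has the largest fitted amplitude of the genes drawn in each panel, and Clock and Rora lie at or under 0.28.

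No difference of rhythm between conditions was called for the 4 genes. In β cells the fitted peak of Arntl was 2.38 ± 0.68 h later after doxycycline (95% interval 1.05 to 3.72 h), with an unadjusted p of 0.00713 in edgeR's interaction test and an adjusted p of 0.948, and 0% of 17128 genes passed (0 by edgeR, 15 by DESeq2). The peak of Npas2 was later by 1.03 ± 0.73 h (-0.40 to 2.47 h), with an adjusted p of 1. Of the other clock genes, 6 had a called rhythm in doxycycline β cells, and their peaks there were later than in control β cells by 2.51 ± 0.70 h (Cry1), 2.00 ± 0.88 h (Nfil3), 1.99 ± 1.30 h (Kat2b), 1.73 ± 0.92 h (Nr1d2), 0.79 ± 1.10 h (Tef) and 0.63 ± 1.05 h (Per3), with adjusted p from 0.948 to 1. None of these differences was called, and whether they differ from one another was not tested. These 6 genes were picked by their call in doxycycline β cells, and Per3, Tef and Kat2b were not called in control β cells. Per1, Per2 and Cry2, called in control β cells alone, and genes called in neither are left out. In α cells the peak of Arntl moved by -0.24 ± 0.78 h (-1.77 to 1.29 h) and that of Npas2 by -0.62 ± 0.72 h, and 0% of 16707 genes passed. In control mice the peak of Arntl was 1.79 ± 0.72 h earlier in β than in α cells (a difference of -1.79 h, -3.20 to -0.38 h, adjusted p = 0.858), where again 0% of genes passed, and in doxycycline mice it differed by 0.84 ± 0.78 h (adjusted p = 0.937), where 0.0571% did. With the α and β libraries of a treatment, time and number as pairs, these counts went from 0 to 22 and from 10 to 66 genes, and Arntl had adjusted p of 0.418 and 0.395. The amplitude of Arntl differed by -0.19 ± 0.23 between doxycycline and control β cells and that of Npas2 by -0.21 ± 0.43.

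The ratio of Npas2 to Clock counts within a library does not depend on how libraries are scaled, and the pair are relatives that each bind BMAL1. Its dependence on the cells present in a library, macrophages among them, was not tested. The ratio was higher in β cells after doxycycline. Control β cells held 0.207 to 8.78 Npas2 counts per 100 Clock counts (median 0.986, n = 12) and doxycycline β cells 0.401 to 11.4 (median 3.07). At ZT8 the libraries held 0.988 and 1.08 in controls against 3.47 and 6.41 after doxycycline, and at ZT20 0.931 and 0.923 against 2.67 and 2.28, without overlap at either time. At ZT0 they held 8.41 and 2.87 against 5.52 and 11.4, which overlap. The mean log2 ratio was higher by 0.997, a factor of 1.996, and higher in 10 of 11 strata of time and run (exact permutation test within strata, two-sided, 6144 arrangements, p = 0.00326, adjusted over 4 comparisons 0.00651). In α cells the difference was 0.15 (exact permutation p = 0.721, adjusted 0.721), with 1 stratum left out because a library held 0 Npas2 counts. In that stratum (ZT12, earlier run) the control library held 0.137 Npas2 counts per 100 Clock counts, so leaving it out raises the difference. Over 5 alternatives, a prior count of 1 among them, the difference ran from 0.005 to 0.23. Whether the effect on this ratio differed between the cell types was not tested.

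Between cell types the ratio was higher in β than in α cells, by 1.15 log2 units in control mice (10 of 11 strata, exact permutation p = 0.00618, adjusted 0.00825) and by 1.89 in doxycycline mice (10 of 10 strata, p = 0.0013, adjusted 0.00521). In the later run alone the doxycycline difference in β cells was 1.07 (exact permutation, adjusted p = 0.0417), and in the earlier run alone 0.89 (adjusted p = 0.167), where 5 strata of 1 library a side cannot reach 0.05 (smallest p 0.0625). The β to α difference in control mice was 0.96 in the later run (adjusted p = 0.0694) and 1.43 in the earlier.

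**Figure D4:**
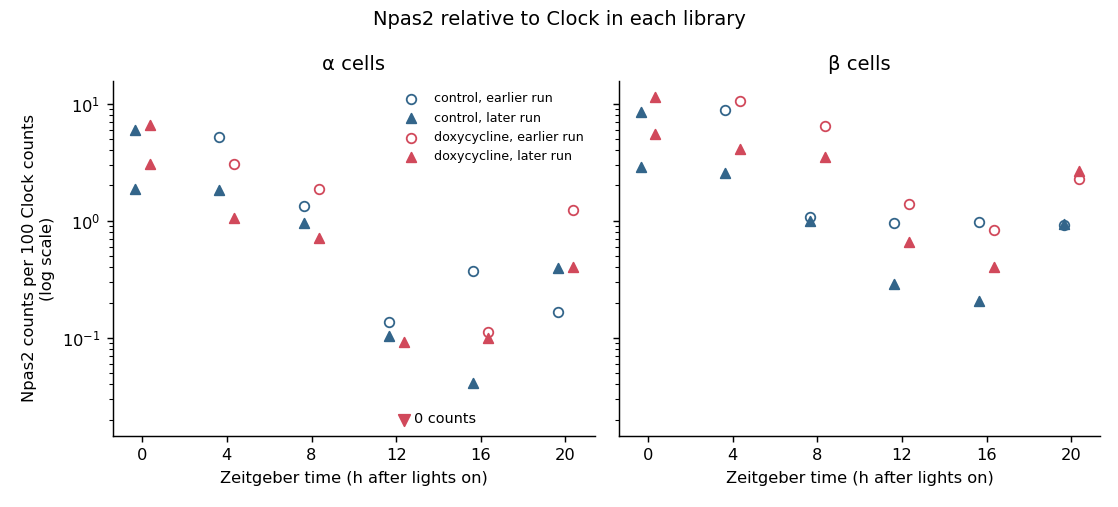
Npas2 counts per 100 Clock counts in each library on a log axis, against zeitgeber time, in α cells (left) and β cells (right). Blue marks control and red doxycycline, open circles the earlier and filled triangles the later run, and the inverted triangle a library with 0 Npas2 counts. In β cells the doxycycline libraries lie above the controls at ZT8 and ZT20 without overlap.

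The other clock genes give the setting. Of 29 genes in the loop besides these 4, 20 were called after doxycycline in β cells, 2 higher and 18 lower, against 22.7% and 21.1% of all genes, and none was called in α cells. The repressors of the REV-ERB, DEC and CHRONO group were all called, 4 lower and 1 higher, with Nr1d1, the gene of REV-ERBα, at -1.005 ± 0.31 (adjusted p = 0.0118, edgeR), Nr1d2 at -0.61 ± 0.14, Bhlhe41 at -0.65 ± 0.13 and Bhlhe40 at 0.73 ± 0.23. Of the PAR bZIP outputs, transcription factors that bind D-boxes, and Nfil3, their competitor, 3 of 4 fell, among them Dbp (-1.19 ± 0.23), Tef (-0.81 ± 0.13) and Hlf (-1.17 ± 0.22), while Nfil3 stood at 0.28 ± 0.18. Of the PER and CRY genes Per3 (-1.17 ± 0.23) and Cry2 (-0.52 ± 0.09) fell, and Per2 (-0.38 ± 0.16, adjusted p = 0.0525) and Cry1 (-0.25 ± 0.16) did not pass. Of the modifiers of clock proteins 9 of 12 fell. The lowest p-values were those of Btrc (-0.42 ± 0.05) and Kat2b (-0.33 ± 0.05), and the larger falls those of Fbxl21 (-0.62 ± 0.16) and Sirt1 (-0.44 ± 0.08). Among the relatives, Arntl2 stood at -0.17 ± 0.49, and Rorb passed at 1.64 ± 0.62 from a level of at most 0.344 CPM in any control β-cell library. The difference of the effect between β and α cells was called for 15 of the 29 genes, all lower, against 12.6% of all genes in that direction.

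Rhythms of these genes set Arntl and Npas2 in time. In control α cells 9 of 29 passed, with Nr1d1 at an amplitude of 1.72 ± 0.11 and a peak at ZT 8.98 ± 0.24 h (edgeR adjusted p = 8.42e-05), Dbp at ZT 10.53, Per2 at ZT 17.72, Cry1 at ZT 22.19 and Nfil3, like Arntl a target of RORE elements, at ZT 0.58. In control β cells 6 of 28 tested passed, among them Nfil3 at ZT 22.38 ± 0.67 h and Cry1 at ZT 19.47 ± 0.51 h. Nr1d1 was not among them, with an amplitude of 0.12 ± 0.30 (adjusted p = 0.971) and libraries between 33.0 and 511.3 CPM. The difference of its rhythm between β and α cells of control mice had an adjusted p of 0.143. In doxycycline β cells 6 of 29 and in doxycycline α cells 9 of 29 passed, and Nr1d1 had amplitudes of 0.09 ± 0.31 and 1.66 ± 0.14 there.

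**Figure D5:**
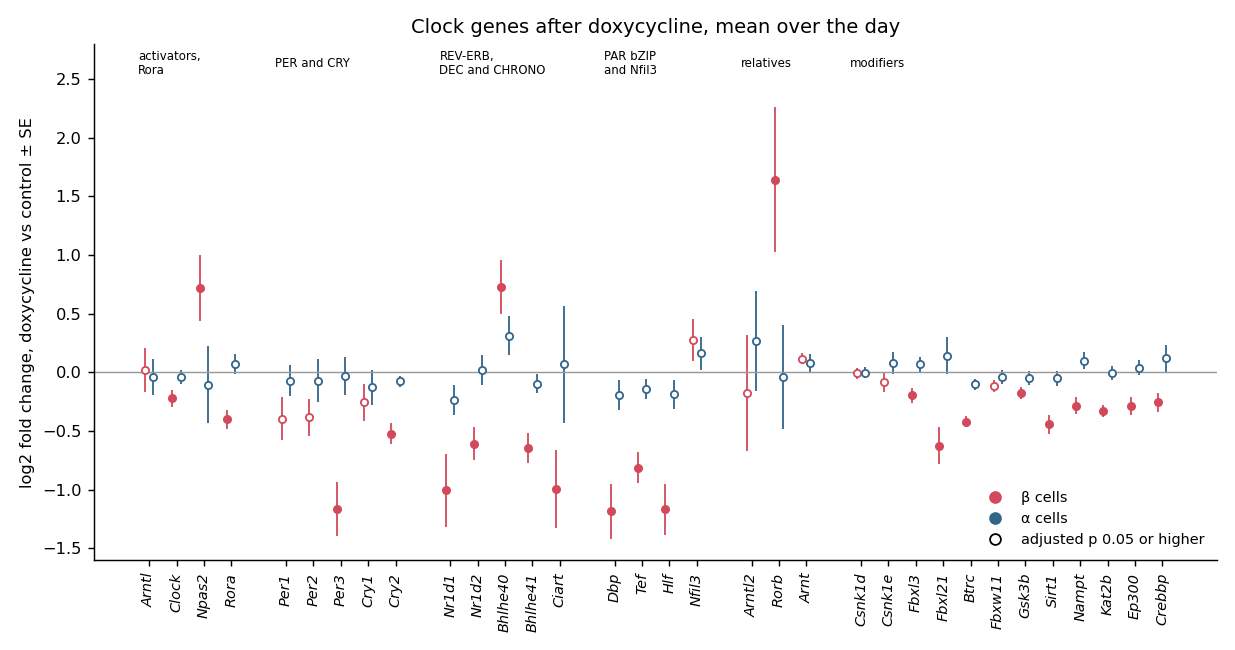
Log2 fold change (doxycycline against control, mean over the day, with SE) of the 4 genes and 29 other clock genes in β cells (red) and α cells (blue), grouped by role. Filled points passed an adjusted p of 0.05. In β cells 18 of the 29 others are called lower and 2 higher, and in α cells no point is filled.

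Genes with a pattern like that of each of the 4 were ranked by Pearson's r over the 48 libraries, on log2 CPM after the means of the conditions and the run were removed, among 8749 genes with a mean of at least 10 CPM. For Arntl they were Nfil3 (r = 0.95), Leo1 (0.88), Fam84a (0.87), Npas2 (0.80, a member taken in below that mean level) and Smap2 (0.79). For Npas2 they were Arntl (0.80), Ppm1b (0.78), Lpl (0.78), Nfil3 (0.75) and Nr1i3 (0.73). For Rora they were Abca1 (0.89), Crebrf (0.87), Fbxl20 (0.87), Klhl24 (0.84) and Insr, the insulin receptor gene (0.83), and for Clock Daam1 (0.79), Sec14l1 (0.78), Sytl5 (0.77), D5Ertd579e (0.76) and Hivep1 (0.75). Among the 4, r was 0.80 between Arntl and Npas2, 0.52 between Arntl and Clock, -0.55 between Arntl and Rora, 0.20 between Clock and Npas2, -0.24 between Clock and Rora and -0.26 between Npas2 and Rora. The libraries share times, depth and quality, so these values describe the 48 libraries and carry no test.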

How the data were processed

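The deposited tables hold an estimated count per gene for each of 48 libraries, one table per sequencing run, and the RPKM of the same libraries. The submitters' processing notes name bcl2fastq for demultiplexing, STAR as the aligner and GRCm38 as the build, with no versions. The counting program and its treatment of shared reads are not given in the sources used here, and the library kit does not mark strand. The authors' estimated counts are not scaled for depth: 49.4 to 73.1% of the nonzero values of a library were whole (within 1e-06), and 99.7 to 100% of whole values up to 20 were even, so 1 counting step adds 2. The authors' RPKM values equal the count per kilobase per M (mega) summed counts in 100% of cases (relative tolerance 0.0001) and were used only to compare levels between genes. All columns were matched by title (0 left over).

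Estimated counts were rounded, filtered with filterByExpr (minimum count 10, minimum total 15), and scaled by TMM. The test was edgeR's quasi-likelihood F test (edgeR 4.0.16, R 4.3.3) on all genes of each comparison, with Benjamini-Hochberg adjustment over them. CPM values were scaled over all 48 libraries. Fits of mean levels held time (6 levels) and run beside the contrast, and those of rhythms a cosine and a sine of 24 h plus the run. SEs of log2 fold changes were taken as the size of the change over the square root of F, and intervals are 1.96 SE either side. SEs of amplitudes and peaks come from the delta method. All 4 members passed the filter in every comparison. Some of the fits, but not the permutation test of the ratio, were also run on simulated counts. Those libraries were drawn independently, so libraries that deviate together were not covered. Depth per library, from 16.1 to 69.9 M counts, limits Npas2 in α cells above all. Between the 2 libraries of a group counts spread 18.6 to 88.2 times more than counting alone gives (χ² per degree of freedom).

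The members, the lists and the tests were chosen with earlier results of these data known. Genes named besides the members are those of a clock list (Nr1d1, Per2, Cry1, Nfil3, Dbp, Arntl2 and the 2 of each group with the lowest p, 1 gene of the list not reported here), the 5 of most alike pattern, and cell type markers. Nr1d2, Bhlhe40, Per3, Rorb and others shown with a whole group's values were named after those were seen. Replicate numbers follow the run at ZT4 to ZT20, where differences between replicates correlated at 0.12 to 0.62 (30 pairs of conditions). At ZT0 the 4 pairs across treatments ran from -0.63 to -0.17, so the numbers do not pair control with doxycycline libraries there. The α and β libraries of one treatment, time and number deviated together at all 6 times (0.20 to 0.62, 12 pairs), and a fit with such pairs as blocks was added after seeing the data. Alternatives were RLE scaling, no filter, DESeq2 1.42.0, no run term, the replicate block in place of the run, the paired fit, each run alone and no ZT0. Others were time as 6 levels for rhythms, a macrophage covariate, a prior count of 1 for the ratio, and each library left out.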

Additional observations from a re-analysis of the deposited data

Results flagged for a closer look

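Rora was flagged because its doxycycline effect differed between cell types by a test of the difference itself. The log2 effect in β cells minus that in α cells was -0.49 (adjusted p = 0.00241, edgeR interaction over 48 libraries). Of all 17935 genes tested, 23.2% passed the same test, 10.6% higher and 12.6% lower, so such calls were common. In β cells Rora fell by 0.40 on the log2 scale and was lower at each of the 6 times, and in α cells its value was 0.07. Leaving out any 1 of the 48 libraries kept the difference between -0.54 and -0.44, with adjusted p up to 0.00663. In the later run alone the difference for Rora was not called (edgeR adjusted p = 0.126). The macrophage and dendritic genes also moved further in β cells (8 of 15 called for the difference, median 1.57). So did the α-cell markers (4 of 7 called higher, median 0.89), the δ, PP and ε markers (2 of 5 higher, 0.52) and, downward, the β-cell markers (4 of 9 lower, -0.76), against a median of -0.02 over all genes. Of the stellate list 1 of 8 was called higher and of the T and B cell list 1 of 7 lower, with none of the acinar and endothelial lists. With the macrophage list as a covariate Rora stood at -0.62 (adjusted p = 0.0157), and the part of the other lists in the result was not tested.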

How the results depend on the processing

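RLE scaling and no filter kept all 19 calls of the 4 members, as did DESeq2. The replicate block in place of the run kept 18 of 19 and ended that of Rora in control α cells (adjusted p = 0.0703). It also took the rhythmic genes of doxycycline β cells from 999 to 364. With the ZT0 numbers of the doxycycline libraries crossed, an alternative chosen after seeing the data, 3, 0 and 1 members were called for the effect in β cells, in α cells and for their difference, as in the fits above. With α and β libraries paired, also added, no call of a member changed in the 5 fits that compare cell types (Rora -0.49, adjusted p = 0.000441, for the difference of the effect), and the genes called for that difference went from 4161 to 5135.

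Of the 3 members called for doxycycline in β cells, 1 was left without the run term, in the earlier run alone and with the macrophage covariate, and 0 in the later run alone. For the difference of the effect the 1 call became 0 in the later run, and for β against α cells in doxycycline mice 3 became 0 with the covariate. Rhythm calls in control β cells went from 2 to 0 in the earlier run, 0 in the later run and 1 with time as 6 levels, and in doxycycline β cells from 2 to 1, 0 and 0. In control α cells they went from 3 to 0, 0 and 0, and in doxycycline α cells from 2 to 0, 0 and 1, to 1 without ZT0 and to 1 with a filter by group, added after seeing the data, under which Npas2 was not tested in α cells. Single runs have fewer samples and time as 6 levels spends more terms, but the cause of these changes was not tested. Leaving out each library gave 1 to 3 members for doxycycline in β cells (1 without control replicate 1 at ZT20), 1 to 2 for the difference, 1 to 2 for control β rhythms and 0 to 2 for doxycycline α rhythms (0 without replicate 1 at ZT20).

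The Npas2 to Clock ratio lost its call in the earlier run alone for doxycycline in β cells (0.89) and for β against α cells in control (1.43) and doxycycline mice (1.84), and in the later run for control mice (0.96). With each library left out, its α-cell doxycycline difference ran from -0.12 to 0.34. Values near 0 that were never called changed sign. Arntl went to -0.014 for doxycycline in β cells in the later run (-0.083 to 0.092 with each library left out), in α cells to 0.056 in the earlier run and 0.056 with the covariate (-0.10 to 0.11), and for their difference to -0.041 with the covariate (-0.11 to 0.10). In α cells Rora went to -0.071 in the earlier run and Npas2 to 0.095 with the covariate (-0.25 to 0.038 with each library left out).

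Counts over all genes moved further. For doxycycline in β cells 7507 became 4878 in the earlier run, 3815 in the later and 3564 with the covariate. In α cells 17 became 127, 0 and 0, with 56 without a filter and 131 in DESeq2. The difference went from 4161 to 2107, 1161 and 2023, and with the covariate β against α cells went from 11484 to 7202 in control and from 11848 to 5037 in doxycycline mice. Rhythmic genes were 1233 in DESeq2, 100 in the earlier run, 1 in the later and 26 with time as 6 levels in control β cells (244), and 2786, 113, 0 and 0 in doxycycline β cells (999, or 172 without the run and 1576 with the filter by group). They were 1367, 37, 1 and 52 in control α cells (463, or 266 without the run) and 1139, 39, 0 and 6 in doxycycline α cells (290, or 126). DESeq2 called 15, 104 and 190 genes for the differences of rhythm where edgeR called 0, 0 and 10. Depth limits Npas2 in α cells, where the night libraries hold 0 to 22 counts.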
